A study of Mus musculus with 2 samples.

Results

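Neutrophils and granulocyte precursors of the newborn mouse molar were described here in 2 single-cell RNA libraries. A cell barcode was counted as a member when it had at least 500 detected genes, at most 20% mitochondrial UMIs (unique molecular identifiers, 1 per captured transcript), at least 40 UMIs of S100a8 and S100a9 per 10000, and at least 1 UMI of Csf3r, Retnlg, Camp, Ngp, Ltf or Ly6g. The rule found 295 members among 28918 barcodes that passed the gene and mitochondrial limits, 146 of 13431 in the control library and 149 of 15487 in the deletion library. Both libraries came from dissociated tooth germs of the mandibular first molar of newborn C57BL/6 mice and were captured on the BD Rhapsody system. The control carried a floxed Edar gene with no Cre (Edarfl/fl). The deletion library carried the same floxed gene with Cre under the keratin 14 promoter (K14cre;Edarfl/fl), which is active in epithelium and not a promoter of blood cells, so Edar, the receptor for ectodysplasin, was targeted outside the cells described here. Red blood cells were lysed and dead cells removed before capture, and the number of pups behind each library was not given. With 1 library per genotype, genotype cannot be told apart from litter, dissociation or capture, and no test was possible: values are given with 95% intervals that cover counting error only.

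Neutrophils are made in marrow, and around birth in the liver, through a fixed order of granule programmes. Promyelocytes transcribe the primary granule proteases and myeloperoxidase, myelocytes and metamyelocytes transcribe the secondary granule proteins while division ends, and band and segmented cells carry gelatinase granules and then the receptors and cytokines of the mature cell. The alarmin calprotectin, the S100a8 and S100a9 heterodimer, is abundant through much of this course, which is why a calprotectin threshold gathers cells of several stages.

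The granule genes that order the members are regulated in part by C/EBP family factors and by PU.1, both known regulators of granulocyte genes, and the 250 bases before the start of Camp, Ngp, Ltf and Mpo are shown because these genes mark the early and middle stages below. Sequences are RefSeq, build GRCm38.p6, written 5′ to 3′ on the gene's strand. Capitals mark the letters TTGCNNAA or its reverse TTNNGCAA, searched as a C/EBP core, in the secondary granule genes, and GAGGAA or its reverse TTCCTC, searched as a PU.1 core, in Mpo. The first 3 lie on chromosome 9, Camp at chr9:109849457-109849706 on the minus strand, Ngp at chr9:110419558-110419807 on the plus strand and Ltf at chr9:111019042-111019291 on the plus strand, and Mpo lies at chr11:87793534-87793783 on the plus strand.
Camp: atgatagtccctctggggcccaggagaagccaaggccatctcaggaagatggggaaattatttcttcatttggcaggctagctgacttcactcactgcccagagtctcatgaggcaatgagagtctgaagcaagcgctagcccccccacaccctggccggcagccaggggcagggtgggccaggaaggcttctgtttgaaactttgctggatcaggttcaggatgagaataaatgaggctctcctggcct
Ngp: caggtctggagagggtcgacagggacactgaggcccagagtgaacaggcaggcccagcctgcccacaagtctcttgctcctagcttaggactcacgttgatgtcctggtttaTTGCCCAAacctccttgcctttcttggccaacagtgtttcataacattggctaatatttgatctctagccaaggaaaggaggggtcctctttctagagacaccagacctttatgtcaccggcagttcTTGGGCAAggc
Ltf: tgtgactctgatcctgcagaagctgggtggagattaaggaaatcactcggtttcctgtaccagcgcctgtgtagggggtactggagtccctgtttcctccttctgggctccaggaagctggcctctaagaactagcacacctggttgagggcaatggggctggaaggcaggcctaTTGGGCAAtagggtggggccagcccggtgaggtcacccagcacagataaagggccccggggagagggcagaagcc
Mpo: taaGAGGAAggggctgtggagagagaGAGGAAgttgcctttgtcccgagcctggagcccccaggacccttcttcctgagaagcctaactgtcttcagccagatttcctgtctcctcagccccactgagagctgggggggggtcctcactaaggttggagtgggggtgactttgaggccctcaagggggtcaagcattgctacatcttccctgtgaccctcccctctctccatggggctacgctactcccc
The Ngp stretch held 2 C/EBP matches, Ltf held 1 and Camp and Chil3 held 0, while 9.56% of 32851 RefSeq windows of this length held at least 1. A PU.1 match was present in all 4 of Mpo, Elane, Prtn3 and Ctsg and in 23.3% of all windows, and none of these 4 held a C/EBP match. Ms4a3, another gene of the primary granule list, held 0 matches of either. PU.1 matches were not particular to the primary granule genes. Of 18 neutrophil genes read, 11 held a PU.1 match and 6 a C/EBP match. Ltf held 1 PU.1 match, which is not in capitals above. The 2 motifs did not overlap in the stretches printed. A match describes letters only.

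The deposited matrices held 13990 control and 16029 deletion barcodes with 73375441 and 62158879 UMIs. Members were shallow, with a median of 1806 UMIs and 896 genes in the control and 1515 UMIs and 832 genes in the deletion library, against 4502 and 3364 UMIs in the other barcodes. The libraries shared 4 barcodes, none of them a member. Edar itself was counted at 32.6 CPM (UMIs of the gene per 1000000 UMIs) in epithelial barcodes of the control and 18.7 CPM in those of the deletion library, where 10.5% (95% exact interval 9.24 to 11.9) and 5.85% (4.78 to 7.08) had a UMI. Whether the counted 3′ end lies in the deleted part was not stated in the sources used here. Control members held 1 Edar UMI and deletion members 0.

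The members were chosen by their calprotectin and rule gene UMIs, so those values are description only. Calprotectin ranged from 43.1 to 1204 UMIs per 10000 in the control, with a median of 497, and from 42.4 to 1325 in the deletion library, with a median of 398. Few barcodes lay near the threshold: 3 control and 6 deletion members had 40 to 60 UMIs per 10000, and 3 and 6 barcodes with a rule gene had 20 to 40, the highest outside at 37.2 and 36.3. Another 24 control and 33 deletion barcodes reached the calprotectin level with none of the 6 genes, and 20 and 24 of those had at least 5 UMIs of macrophage and monocyte genes. Retnlg, a secreted resistin-like protein of neutrophils, had a UMI in 125 control and 127 deletion members. Ngp, a neutrophil granule protein, had one in 68 and 75, Camp, the cathelicidin precursor, in 66 and 60, and Ltf, lactoferrin, in 55 and 56. Csf3r, the G-CSF receptor, had one in 86 and 72, and Ly6g, the surface antigen used to sort mouse neutrophils, in 33 and 32.

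**Figure D1:**
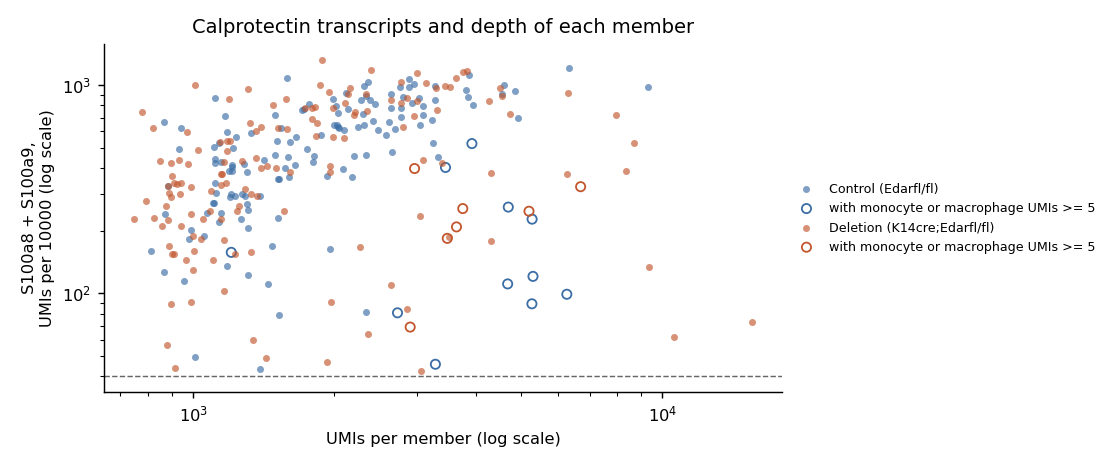
Calprotectin transcripts (S100a8 plus S100a9, UMIs per 10000) against total UMIs of each of the 295 members, both on log scales, with the threshold of 40 dashed. Open circles are members with at least 5 UMIs of macrophage and monocyte genes, 11 of them control and 7 deletion members.

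Free RNA, released by broken cells and captured with intact ones, was read in endothelial and epithelial barcodes that were not members. Barcodes that met the rule were left out, so the highest levels below cannot show that free RNA stays under the threshold. S100a8 had a UMI in 0.596% of 1342 control and 0.907% of 1102 deletion endothelial barcodes (median 3306 and 3125 UMIs), and their highest calprotectin levels were 14.1 and 19.5 per 10000. In epithelial barcodes S100a8 had a UMI in 0.841% of 2140 and 0.777% of 1673 (median 4212 and 3373 UMIs), with highest levels of 17.6 and 181. Ngp was detected in 0.149% and 0.272% of endothelial barcodes. In the other direction, 8 mesenchymal genes, among them Col1a1 and Col1a2, stood for free RNA in members. Their median level was 2.18% of that in control non-members and 2.81% of that in deletion non-members, but the pooled level was 4.91% and 14.2%. The pooled gap lay in a few members: 5 control and 11 deletion members had at least 100 such UMIs per 10000, and without them the pooled level was 2.45% and 3.48%.

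Markers of other blood cells were read in the same members. Hbb-bs, Hbb-bt, Hba-a2, Alas2 and Slc4a1 of red cells were at 0 in both libraries, as were Epx and Prg2 of eosinophils and Cpa3 and Mcpt4 of mast cells. The erythroid list had 1 and 2 UMIs in all (Hba-a1), the eosinophil list 2 and 0 (Siglecf), the mast cell and basophil list 0 and 4, and the lymphocyte list 3 and 13, of which Nkg7 held 0 and 10. The 8 macrophage genes summed to 343 CPM in the control, all 8 detected, and 87.9 CPM in the deletion library, where C1qa, C1qb and Ms4a7 were at 0, and 1 control member held 52 of the 110 control UMIs. The 12 macrophage and monocyte genes other than Ly6c2 separated the members plainly: 11 control and 7 deletion members had at least 5 such UMIs, and every other member had at most 2. Those members were deep, with medians of 4680 and 3641 UMIs. All of them had Ly6c2, the antigen of inflammatory monocytes, but so did 85 control and 85 deletion members in all, so Ly6c2 does not mark them out. Among them 7 and 5 had Ccr2, the monocyte chemokine receptor, 1 and 0 had Retnlg, and none had Ly6g. They entered mostly through Csf3r, which was the sole rule gene in 10 of the 11 and 6 of the 7. Their macrophage and monocyte UMIs other than Ly6c2, and the scarcity of Retnlg, go against the label. Cxcr2, a gene of the late neutrophil list, goes with it and had a UMI in 4 of the 11 and 1 of the 7. They were kept in the count of members because the rule finds them, and they took 14.4% of control and 8.39% of deletion member UMIs. Members with many mesenchymal UMIs held 11184 of 320757 control and 47905 of 341423 deletion member UMIs, and 3 deletion members with at least 100 UMIs of Mpo, Elane, Prtn3 and Ctsg held 9.24% of the deletion total. The member with 173 UMIs of those 4 genes was also among the 7 with macrophage and monocyte UMIs. These 3 kinds, 16 control and 20 deletion members in all, were chosen after their values were seen and are called set apart below. Shares and counts of called genes are given with and without them, and levels per range without them except where all members are named.

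The spread of maturation was read from the balance of 2 gene groups. The score is the share of secondary granule UMIs (Camp, Ngp, Ltf and Chil3) among those UMIs plus those of 8 late genes, among them Csf3r, Retnlg, Cxcr2 and Il1b, for members with at least 5 such UMIs. Camp, Ngp, Ltf, Csf3r and Retnlg were also rule genes, so the score describes members chosen in part by its own genes. A score of at most 0.2 is called late-dominated, at least 0.8 secondary-dominated and the rest intermediate. These are ranges of a score and not cell types: 19 control and 15 deletion members lay within 0.1 of the lower boundary and 15 and 28 within 0.1 of the upper. The score was at 0 in 73 control and 70 deletion members, its upper quartile was 0.286 and 0.555, and its highest value was 0.911 in both. Most members were late-dominated, 102 of 146 in the control and 93 of 147 scored in the deletion library. Members with 0.3 to 0.7 numbered 20 and 19.

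**Figure D2:**
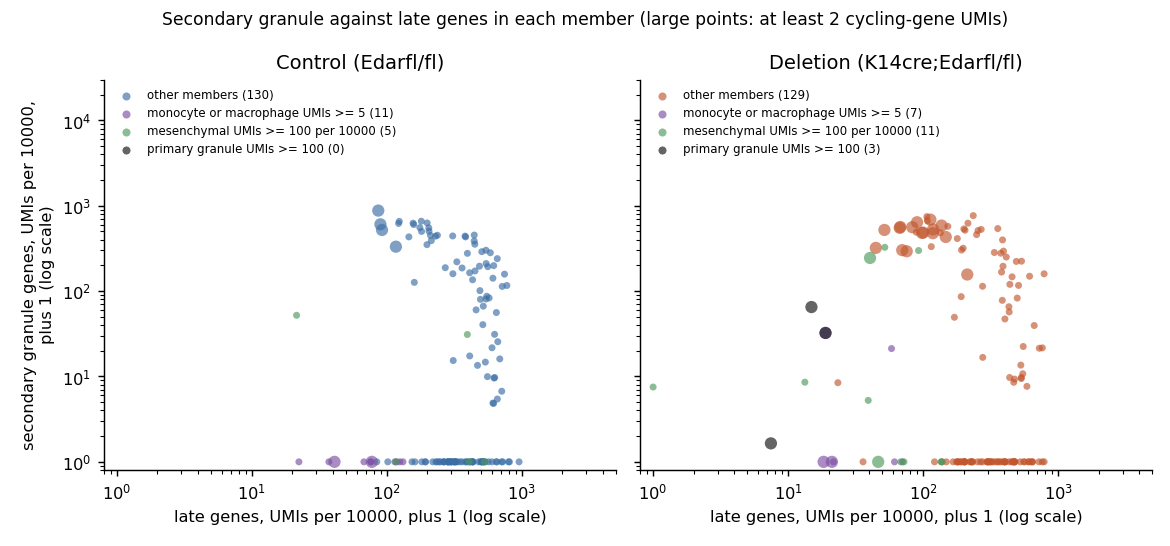
Secondary granule UMIs against late UMIs of each member, per 10000 and plus 1, on log scales, with points enlarged where at least 2 UMIs of 9 cycling genes were counted. Most members without secondary granule UMIs line the bottom, and the enlarged points gather at high secondary and low late levels, more of them in the deletion library (23 members) than in the control (6).

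**Figure D3:**
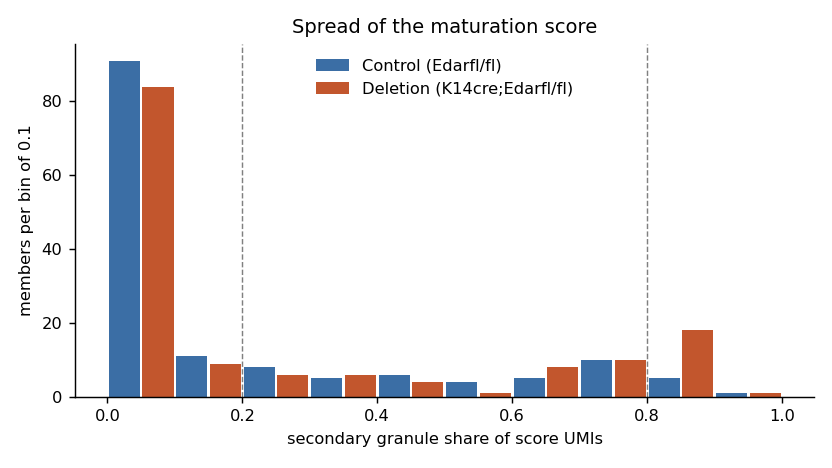
Members per bin of 0.1 of the maturation score in the control (146) and deletion (147) libraries, with dashed lines at 0.2 and 0.8. The lowest bin is the fullest in both, and the deletion library has more members above 0.8 (19 against 6).

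Along the score, the members differed in genes the score did not use. Depth was part of this: the median UMI count was 1429 in late-dominated, 2791 in intermediate and 4354 in secondary-dominated control members, and 1150, 2214 and 3840 in the deletion library. Spearman's rho between score and UMIs was 0.607 over 146 control and 0.686 over 147 deletion members, which share a library and depth. After thinning to 1000 UMIs the rho with detected genes was -0.412 in 133 and -0.208 in 106 members, where the unthinned values had been 0.583 and 0.643. The list levels below are summed CPM per range, without the members set apart.

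Proliferation genes (16, among them Mki67, the division marker, and Top2a, topoisomerase II) stood at 1361 CPM (95% Poisson interval 1166 to 1578) in late-dominated, 1948 (1692 to 2232) in intermediate and 10309 (9166 to 11555) in secondary-dominated control members. The deletion library gave 1180 (974 to 1418), 2214 (1891 to 2577) and 11035 (10252 to 11862). In these sets the intervals of each range overlapped between libraries. Over all members the late-dominated level was 1338 CPM (1176 to 1516) in control and 2302 CPM (2063 to 2560) in deletion members, which do not overlap, and the secondary-dominated level was 10309 and 9681 CPM. In the deletion library 139 of the 339 UMIs behind the late-dominated level were in 1 member. That member had 340 UMIs of Mpo, Elane, Prtn3 and Ctsg, and its score of 0.0909 placed it in this range. Mki67 was counted at 0, 0 and 454 CPM in the control ranges and at 20.7, 106 and 675 CPM in the deletion ranges. Pclaf, a PCNA-binding factor of S phase, was at 0, 47.1 and 664 CPM and at 10.4, 39.8 and 945 CPM. Over all late-dominated members, the deletion member with those 340 UMIs included, Mki67 was at 10.9 and 61.1 CPM and Pclaf at 10.9 and 156 CPM.

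Inflammatory activation genes ran the other way. Their 17 members summed to 30151 CPM (29209 to 31115) in late-dominated, 4630 in intermediate and 2237 in secondary-dominated control members, and to 29468 (28396 to 30571), 4693 and 2384 in the deletion library. Over all members the 3 ranges stood at 26077, 4565 and 2237 CPM and at 22377, 4312 and 2095 CPM. Cxcl2, a neutrophil-attracting chemokine, was at 8988, 546 and 0 CPM in control and 9888, 438 and 105 CPM in deletion members. Acod1, the itaconate-producing enzyme, was at 1011, 18.8 and 0 CPM and at 1377, 39.8 and 0 CPM. The 15 immediate early genes, which respond quickly to stimulation and also to tissue dissociation, stood in the same order, at 17190, 7208 and 3774 CPM in control and 16225, 7451 and 4213 CPM in deletion members. How much of either list arose during digestion was not tested.

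Granule and oxidase genes outside the score took other courses. The gelatinase granule and oxidase list (14) was highest in the intermediate range, at 11662, 14943 and 8632 CPM in control and 10737, 12993 and 7002 CPM in deletion members. Mmp8, neutrophil collagenase, was at 2659, 3199 and 175 CPM in control ranges and had a UMI in 1 of 6 control and 2 of all 19 deletion members of the secondary-dominated range, so it was low where Camp was highest. Cybb, the membrane subunit of the NADPH oxidase, ran opposite, at 163, 1844 and 3110 CPM and at 249, 2055 and 3164 CPM, but over all late-dominated members it was at 604 and 530 CPM. Lcn2, the siderophore-binding protein of secondary granules, and Anxa1, annexin A1, were lowest in the late-dominated range. Lcn2 was at 2511, 10897 and 8597 CPM in control and 2185, 9387 and 8951 CPM in deletion members, and Anxa1 at 2294, 7923 and 7059 CPM and at 1843, 6589 and 6747 CPM. Cebpe, the factor required for secondary granule genes in mice, had UMIs, over all members, in 2 of 102, 9 of 38 and 2 of 6 control members and in 2 of 93, 6 of 35 and 8 of 19 deletion members. Fcnb, ficolin B, which is made by immature granulocytes, was at 0, 179 and 944 CPM in control and 0, 239 and 390 CPM in deletion members. The interferon response list was low throughout, at 1337, 593 and 349 CPM and at 1025, 610 and 240 CPM.

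**Figure D4:**
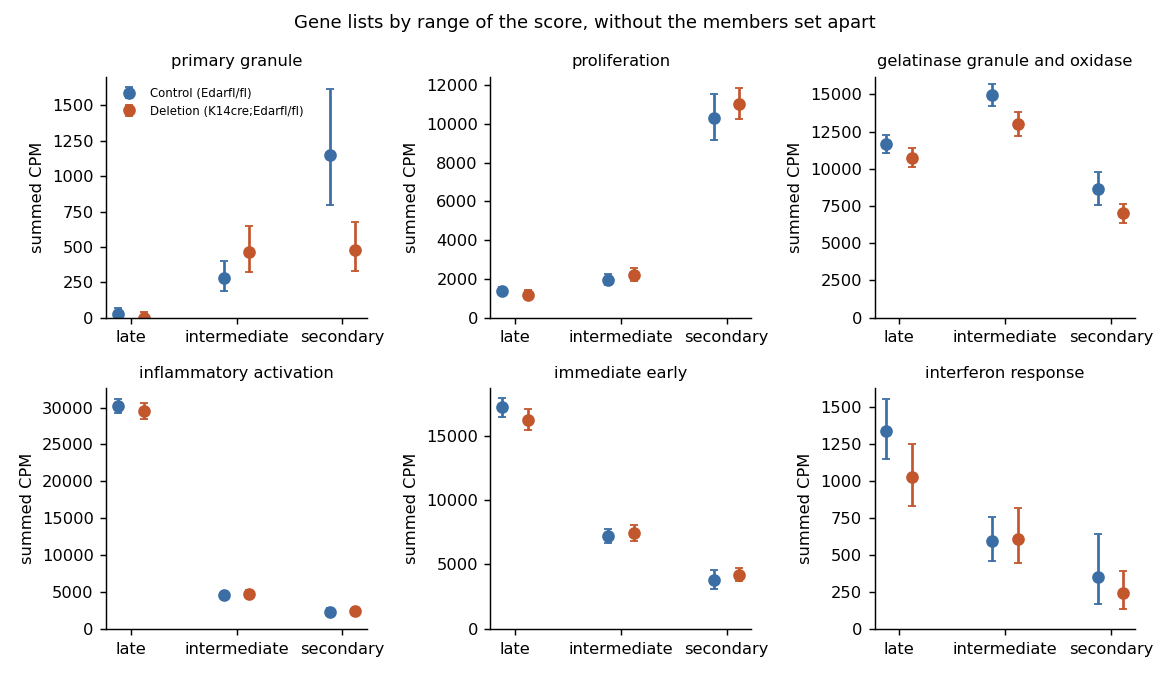
Summed CPM of 6 gene lists in late-dominated, intermediate and secondary-dominated members of each library, without the members set apart, with 95% Poisson intervals that cover counting error only. Proliferation stands at 10309 and 11035 CPM in the secondary-dominated range against 1361 and 1180 CPM in the late-dominated range, and inflammatory activation shows the reverse order.

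The 2 libraries held close shares of members. Members were 1.09% (exact interval 0.919 to 1.28) of control and 0.962% (0.814 to 1.13) of deletion barcodes, a difference of -0.12 percentage points (-0.366 to 0.112). Thinned to 1000 UMIs per barcode the shares were 0.973% and 0.712%, a difference of -0.261 points (-0.483 to -0.0441), but 10 control and 33 deletion members were too shallow to thin. In those same deeper barcodes the unthinned shares were 1.03% and 0.758%. Without the members set apart the shares were 0.968% and 0.833%.

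The composition differed more than the number. Secondary-dominated members were 6 of 146 (4.11%, 1.52 to 8.73) in the control and 19 of 147 (12.9%, 7.96 to 19.4) in the deletion library, 8.82 points more (2.04 to 15.8). The score shares genes with the rule that chose the members, so this difference is description only. Late-dominated members were 69.9% and 63.3%, a difference of -6.60 points whose interval of -17.7 to 4.67 includes 0. Members with at least 2 UMIs of 9 cycling genes (Mki67, Top2a, Birc5, Cdk1, Pclaf, Rrm2, Mcm5, Mcm6 and Tyms) were 6 of 146 (4.11%) and 23 of 149 (15.4%), 11.3 points more (4.23 to 18.6). Deletion members were the shallower, and after thinning to 1000 UMIs the cycling shares were 2 of 136 (1.47%) and 16 of 116 (13.8%), 12.3 points apart (5.51 to 20.1). The members too shallow to thin were all late-dominated. Thinning left 92 of 102 late-dominated control and 60 of 93 late-dominated deletion members, so it also changed the composition of the sets compared. Of the cycling members 3 of 6 control and 15 of 23 deletion members were secondary-dominated. Without the members set apart the secondary-dominated shares were 6 of 130 (4.62%) and 16 of 128 (12.5%), and the cycling shares 4 of 130 (3.08%) and 16 of 129 (12.4%). Ribosomal protein genes took 4.53%, 3.67% and 5.69% of the UMIs of the control ranges and 6.37%, 8.31% and 8.25% of those of the deletion ranges, and mitochondrial genes 2.22%, 2.58% and 2.77% against 3.16%, 4.13% and 3.75%. The part of either in the difference in composition was not tested. With 6 control members in the secondary-dominated range, levels there rest on few cells.

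Gene by gene, a gene was tested when it reached 50 CPM in at least 1 library and was called when the ratio of (CPM + 5) was at least 2 and its 95% counting interval excluded 1. Of 3444 genes 358 (10.4%) were called higher and 116 (3.37%) lower in the deletion library. Without the members set apart 204 of 3256 (6.27%) were higher and 86 (2.64%) lower, in late-dominated members 218 of 3555 (6.13%) and 98 (2.76%), and in late-dominated members without those set apart 140 of 3461 (4.05%) and 87 (2.51%). The median log2 ratio over all tested genes was -0.02. Below, log2 ratios are deletion over control on the (CPM + 5) scale, and shares called are to be read against these backgrounds.

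Primary granule genes looked higher, and 3 members carried the difference. Mpo, myeloperoxidase, was at 6.24 CPM in control and 835 CPM in deletion members, Elane, neutrophil elastase, at 9.35 and 287 CPM, Prtn3, proteinase 3, at 49.9 and 685 CPM, and Ctsg, cathepsin G, at 0 and 284 CPM, at least 30.4-fold higher against a floor of 3 UMIs in the control. Of 7 list genes 5 were called higher and the median log2 ratio was 3.65. Mpo, Elane, Prtn3 and Ctsg together had 21 UMIs in control members and 714 in deletion members, and 688 of the 714 (96.4%) were in 3 members with 340, 175 and 173. Without the members set apart the list median was 0.09, with none called. Over all kept barcodes, members or not, these 4 genes summed to 897 control and 1042 deletion UMIs (12.4 and 17.0 CPM), and 2 control and 3 deletion barcodes held at least 100. The 2 control barcodes, with 339 and 102, fell outside the rule: they had 10 and 0 calprotectin UMIs, and the latter also had 23 UMIs of Cd34, a marker of blood progenitors. Barcodes rich in these 4 genes were thus present in both libraries, on different sides of the rule.

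Secondary granule genes were close in sum. Camp, Ngp and Ltf among them were rule genes, so their values are description only. Camp was at 5319 and 5843 CPM, Ngp at 10622 and 10717 CPM, Ltf at 2117 and 2241 CPM and Lcn2 at 5537 and 4847 CPM, in control and deletion order. None of the 8 was called, 3 were above 0 and 5 below, and the list median was -0.10 (0.01 without the members set apart). In late-dominated members without those set apart the median was -0.41 and Camp, at 505 and 249 CPM, was called lower. Over all kept barcodes members held 99.4% and 99.1% of Camp UMIs and 99.2% and 99.1% of Ngp UMIs. The rule used both genes, so these shares were set in part by the selection. Lcn2, which the rule did not use, had 96% and 95.6% of its UMIs in members. For Chil3, a chitinase-like protein also made by macrophages, the shares were 94.6% and 78.9%.

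Late neutrophil genes were lower in sum in the deletion library. Csf3r, Retnlg and Ly6g among them were rule genes, so their values are description only. All 18 had a log2 ratio under 0, with a median of -0.61, and 3 were called: Cxcr2, the receptor for Cxcl1 and Cxcl2 that releases neutrophils from marrow, Il1b, interleukin-1 beta, and Selplg, the selectin ligand. Retnlg was at 17674 and 10591 CPM (log2 -0.74), Stfa2l1, a stefin family protease inhibitor gene, at 8655 and 5665 CPM (-0.61), and Il1b at 2460 and 1051 CPM (-1.22). Cxcr2 was at 948 and 413 CPM (-1.19), with a UMI in 115 of 146 and 81 of 149 members. Selplg was at 224 and 87.9 CPM (-1.30), with a UMI in 54 and 26 members. Without the members set apart all 18 were again under 0, with a median of -0.39, and Cxcr2 and Selplg were called. In late-dominated members alone, without those set apart, the median was -0.12 with 5 above 0 and 13 below. Retnlg then stood at 26924 and 24561 CPM and Cxcr2 at 1687 and 963 CPM (log2 -0.81, not called). Selplg was called there too, at 358 and 176 CPM. The late-dominated range was itself defined with 8 genes of this list and 4 of the secondary granule list, so nothing is read from either list within it.

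Inflammatory activation genes followed the late list. All 17 were under 0 with a median of -0.67, and Ccl4, Tnf and Il1a were called lower. Cxcl2 was at 4521 and 3330 CPM, Nfkbia, the NF-kB inhibitor, at 2139 and 1485 CPM and Tnf, tumour necrosis factor, at 751 and 319 CPM (log2 -1.22). Ccl4, a chemokine, was at 321 and 108 CPM (-1.52). Il1a, interleukin-1 alpha, was at 77.9 and 8.79 CPM (-2.59) from 25 and 3 UMIs in 8 and 2 members. The median was -0.37 without the members set apart, and Ccl4 alone was called. In late-dominated members without those set apart the median was -0.15, 6 were above 0 and 11 below, and Il1a alone was called lower.

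Proliferation genes were higher in sum. All 16 were above 0 with a median of 1.70, and 10 were called, against the background of 10.4%. Mki67 was at 46.8 and 199 CPM (log2 1.98) with a UMI in 5 and 20 members, Top2a at 46.8 and 185 CPM (1.87) in 3 and 16, and Stmn1, stathmin, at 68.6 and 293 CPM (2.02) in 7 and 27. Mcm6, a subunit of the replicative helicase, was at 9.35 and 144 CPM (3.37) in 3 and 17 members. Hmgb2, a chromatin protein also expressed outside division, was at 1562 and 1710 CPM (0.13). The median was 1.56 with 9 called without the members set apart, and 1.01 with none called in late-dominated members without those set apart, where 7 of 11 measured genes were above 0. E2f1, a transcription factor of S phase entry that belongs to no list used here, was at 0 UMIs in control members and at 24 UMIs in 18 deletion members, at least 7.52-fold higher against the floor of 3 UMIs, and it was called without the members set apart too.

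**Figure D5:**
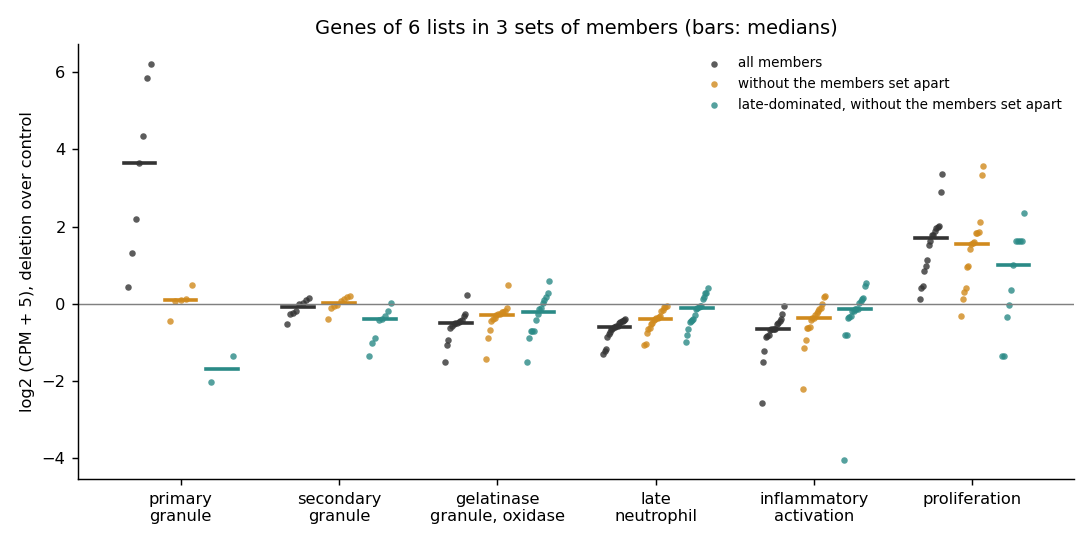
Log2 ratio of (CPM + 5), deletion over control, for genes of 6 lists in all members, in members without those set apart, and in late-dominated members without those set apart, with bars at the medians. The primary granule median moves from 3.65 to 0.09 when the members set apart are left out, and the late neutrophil median moves from -0.61 to -0.39. The late-dominated set was defined with genes of the secondary granule and late neutrophil lists.

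The calprotectin list and the remaining lists follow. S100a8 was at 38814 and 33768 CPM and S100a9 at 19731 and 16340 CPM, which the rule used. S100a6 and S100a11, S100 family genes the rule did not use, were at 3158 and 1959 CPM and at 3987 and 2712 CPM. In the gelatinase granule and oxidase list 13 of 14 were under 0 (median -0.50) and Mmp9, gelatinase B, at 1908 and 896 CPM, and Slc11a1, a metal transporter of phagosomes, at 93.5 and 29.3 CPM, were called lower. Slc11a1 was called without the members set apart, and neither was in late-dominated members without those set apart, where the list median was -0.21. Cybb was the exception, at 1235 and 1447 CPM. Actin and motility genes (14) had a median of -0.38, and Fgr, a Src family kinase, was called lower at 327 and 161 CPM over all members and in neither smaller set. Granulocyte transcription factors had none called and a median of -0.41 over 10 measured (-0.30 over 9 without the members set apart), with Cebpb at 1054 and 940 CPM and Spi1, which encodes PU.1, at 237 and 144 CPM. Immediate early genes had a median of -0.08, with Atf3 and Egr1 called higher. Atf3, a stress-induced factor, was at 46.8 and 99.6 CPM and stayed called in both smaller sets. Egr1 was at 221 and 483 CPM, with 43 of its 165 deletion UMIs in 1 member, and was not called without the members set apart. Interferon response genes had a median of -0.69 over 11 measured (-0.59 over 10 without the members set apart), with none called. Macrophage genes were lower (2 of 2 tested called, Csf1r and Cd68), and neither was called without the members set apart.

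Outside the lists, the 10 genes with the highest ratios were H19, Col6a1, Mfap4, Itm2a, Dlk1, Mest, Sfrp2, E2f1, Loxl2 and Adamts1. H19, an imprinted noncoding RNA abundant in fetal mesenchyme, was at 15.6 and 1245 CPM, with 169 of 425 deletion UMIs in 1 member, where free RNA alone would give 40.9 and 178 CPM. Its log2 ratio was 1.81 without the members set apart, and it was still called. Col6a1, a collagen chain, was at 0 and 152 CPM (at least 16.3-fold higher), against 18.4 and 80.7 CPM for free RNA, and was not called without the members set apart. The free RNA values given for H19 and Col6a1 used the pooled levels of 4.91% in control and 14.2% in deletion members. Without the members rich in mesenchymal UMIs those levels were 2.45% and 3.48%, so less free RNA is to be read for the other members. Sfrp2, a secreted Wnt modulator, had 26 of its 28 deletion UMIs in 1 member. Among the 10 lower genes Rgs1, a regulator of G-protein signalling, had 29 of 38 control UMIs in 1 member and was at 0 in both libraries without the members set apart. Ctss, cathepsin S of macrophages and monocytes, was at 349 and 105 CPM and not called without the members set apart, nor were Auh, Trf and Tmem268. Trpm2, a calcium channel gated by ADP-ribose and oxidants, was at 112 and 26.4 CPM, in 33 and 9 members, and 133 and 29.2 CPM without the members set apart (log2 -2.01), where 1600014C10Rik, 9830107B12Rik, Gpr132 and Treml4 were also called lower.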

How the data were processed

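The files used were 2 count matrices of UMIs per gene and barcode as deposited by the authors, 1 per genotype, not normalized. Per the submitters' processing notes the tools and builds named are STARsolo and mm10, and any filter applied before deposit was not given in the sources used here. Gene identifiers matched GENCODE for 31107 of 31253 features, and the gene symbol was the same for 30203. The members, gene lists and score were chosen with earlier results of these data known.

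From the counts, UMIs were summed over members of each library and divided by their total to give CPM. Proportions carry exact Clopper-Pearson intervals, levels exact Poisson intervals, ratios conditional binomial intervals, and differences of shares a square-and-add interval. Free RNA was estimated from 8 mesenchymal genes. Thinning drew 1000 UMIs per barcode without replacement, with a fixed seed. Doublets were kept in the main result; Scrublet (scanpy 1.11.5) called 178 control (1.33%) and 241 deletion (1.56%) barcodes, 1 and 8 of them members, and was an alternative. The counting was tested on simulated data. Genes named were the rule genes, 2 to 5 genes per list with most UMIs plus those called, and up to 10 higher and 10 lower outside the lists. Python 3.11.15, numpy 2.4.6 and scipy 1.17.1 were used. Some genes of the lists are not reported here. The alternatives tried are given at the end. UMI counts of 1 barcode are low, and intervals leave out differences between animals and captures.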

Additional observations from a re-analysis of the deposited data

How the results depend on the processing

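No paired analysis was possible because each genotype has 1 library. The member share difference ran from -0.261 to 0.0841 points under 11 alternatives. Its interval included 0 for all UMIs and lay below 0 when thinned to 1000 UMIs (-0.483 to -0.0441), and its sign changed only with barcodes of at least 300 genes. The secondary-dominated difference stayed positive under 14 (6.35 to 10.9 points), although at a boundary of 0.5 its interval of -1.15 to 18.5 includes 0. Genes called higher (358) came to 222 thinned to 1000 UMIs, 189 with equal weight per member, 757 with no minimum level, 177 with a minimum of 100 CPM, 204 without the members set apart and 218 in late-dominated members only. Genes called lower (116) came to 67 with a minimum of 100 CPM. The secondary granule median (-0.10) was 0.22 thinned and kept its sign in 12 of 18 alternatives, so its sign is not settled. It was -0.46 with equal weight per score range and -0.57 in late-dominated members only, but these settings use a score built with genes of this list and the late list. The late neutrophil median (-0.61) was -0.29 with equal weight per member and below 0 under all 18 alternatives. The cause of these shifts was not tested. The alternatives without the members set apart, and that in late-dominated members, were chosen after seeing the data. With the other scalings the median log2 ratio of tested genes was 0.03 and -0.03.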

Other observations

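Signals that recruit neutrophils were read in the other barcodes of each library, with members left out. Cxcl1, a Cxcr2 ligand, was at 83.9 CPM in control and 130 CPM in deletion barcodes, and Cxcl12, the ligand of Cxcr4 that retains neutrophils in marrow, at 48.9 and 76.6 CPM. Cxcl2 was at 335 and 326 CPM, and members held 5.67% and 5.42% of its UMIs. Csf3, G-CSF, was at 0.848 and 1.46 CPM from 61 and 89 UMIs, and Ccl2, a monocyte chemokine, at 173 and 146 CPM. None of the 17 genes of this list reached a 2-fold ratio of (CPM + 5) in those barcodes. For low genes the added 5 CPM weighs heavily. Cxcl5, at 2.14 and 5.37 CPM from 154 and 327 UMIs, had a log2 ratio of 0.54 with it. The interval of its count ratio without it was 2.07 to 3.06. In members 4 of 7 tested were called lower in the deletion library, against 3.37% of all genes: Il1b, Il1a, Ccl2 and Saa3. Without the members set apart 1 of 6 was called, Saa3.

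Both libraries held members with Xist and members with Y-linked transcripts. Xist without a Y-linked UMI was seen in 9 control and 11 deletion members, Y-linked UMIs of Ddx3y, Eif2s3y, Uty or Kdm5d without Xist in 37 and 24, both in 2 and 6, and neither in 98 and 108. Xist was called higher in deletion members, at 46.8 and 158 CPM (log2 1.66), and was not called without the members set apart.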
